A study of Homo sapiens with 9 samples.

Results

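The cytosolic ribosomal protein genes encode the protein part of the ribosome, and 83 of them were followed through 9 RNA-seq libraries. Members were taken by symbol, from names made of RPL or RPS and a number together with RPLP0, RPLP1, RPLP2 and RPSA, with pseudogenes left out. Of the 85 genes with such a name, 83 had 1 TPM or more in 3 or more of the 9 columns, out of 14118 genes that did so and 58174 listed. TPM is transcript abundance corrected for length and scaled to a fixed total per library. The members were 77 core genes, 46 of the large and 31 of the small subunit, and 6 L-paralogues, which are extra copies encoded elsewhere in the genome: RPL7L1, RPL22L1, RPL26L1, RPL36AL, RPL39L and RPS27L. The remaining pair, RPL3L and RPL10L, stayed under 0.400 TPM in all 9 libraries and was not tested. FAU and RACK1 encode ribosome components under other names and are given as related genes.

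The series title asks about an activity of the transcription factor NFE2L1 other than transcription. There were 3 libraries from cells with NFE2L1 overexpression, 3 from cells with NFE2L1DC overexpression and 3 from control cells labelled WT. The protocol names the lines HepG2-NFE2L1, HepG2-NFE2L1ΔC and HepG2-pLVX, the last after a lentiviral vector, and the sources used here do not give the extent of the ΔC change, the number of clones behind each line or the origin of the replicates. P-values therefore measure only the spread between these libraries, which may be technical. All cells are labelled HepG2, a line from a human liver tumour, and were grown in high-glucose DMEM with fetal bovine serum. None of 14 liver and HepG2 markers reached 1 TPM in any library, and ALB, APOB, SERPINA1, TTR, FGA, FGB and FGG were listed at 0 throughout, so the cells are called cells labelled HepG2 below. Of 15 markers of other cell types, 5 reached 1 TPM. These 15 summed to 104 to 114 TPM with NFE2L1, 97.2 to 109 TPM with NFE2L1DC and 142 to 160 TPM in control, mostly COL3A1, while PTPRC, CD3E, LYZ, HBB and COL1A2 were at 0, and their part in the results was not tested. NFE2L1 itself was at 207.3, 180.6 and 354.3 TPM in the NFE2L1 libraries, 444.9, 426.7 and 472.1 TPM in the NFE2L1DC libraries, and 104.2, 81.74 and 63.98 TPM in control. Control replicate 3 stood apart from the other control libraries along GC content, as described with the members, and results are also given without it. The depth of the libraries is unknown because the files hold TPM and no counts.

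A ribosome is built in the nucleolus from ribosomal RNA and ribosomal proteins, most of them present as a single copy per ribosome, with the large subunit forming peptide bonds and the small subunit reading the mRNA. Most mRNAs of these proteins begin with a C followed by an unbroken run of pyrimidines, the terminal oligopyrimidine or TOP motif, through which mTOR and the RNA-binding protein LARP1 control their translation and stability. L-paralogues are usually expressed far below their canonical genes. Some, such as RPL3L in muscle and RPL10L in testis, are known for tissue-restricted expression, and RPS27L is known as a p53 target.

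The RefSeq promoter table (GRCh38.p14) held 67 of the 83 members, and the bases around the annotated start are given for some of them. Each window holds 15 bases before the start and 15 from it on, and capitals mark a run of C and T that begins with C at the first transcribed base and is at least 5 bases long. RPLP0, RPL13A and RPS19 are shown because the results below turn on them, and the canonical genes are shown beside their L-paralogues because such copies can differ in this feature, as RPL26L1 and RPS27L do from their canonical genes and RPL22L1 does not.
RPLP0, chr12:120201097-120201126, minus strand: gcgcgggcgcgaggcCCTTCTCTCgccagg
RPL13A, chr19:49487593-49487622, plus strand: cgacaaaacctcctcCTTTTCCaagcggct
RPS19, chr19:41860240-41860269, plus strand: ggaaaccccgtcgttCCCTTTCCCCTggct
RPL26, chr17:8383179-8383208, minus strand: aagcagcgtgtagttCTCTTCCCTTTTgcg
RPL26L1, chr5:172958714-172958743, plus strand: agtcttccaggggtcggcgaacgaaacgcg
RPS27, chr1:153990747-153990776, plus strand: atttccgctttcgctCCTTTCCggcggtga
RPS27L, chr15:63157463-63157492, minus strand: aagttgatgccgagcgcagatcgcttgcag
RPL22, chr1:6199581-6199610, minus strand: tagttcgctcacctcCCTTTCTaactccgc
RPL22L1, chr3:170870181-170870210, minus strand: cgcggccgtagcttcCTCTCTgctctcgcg
Such a run was present at the annotated start of 42 of 62 core genes with an entry (67.7%) and 1 of 5 L-paralogues, RPL22L1, against 4.04% of all 27305 RefSeq promoters. RPL7L1, RPL26L1, RPL36AL and RPS27L had none at the annotated start. A run that begins a few bases from the annotated start counts as absent here. In the promoter window of 250 bases before and 50 after the start, CCGGAAG, searched on both strands, was present in 34.3% of the 67 members, 20.0% of 9258 tested genes with an entry and 10.7% of all promoters. TATAAA, searched likewise, was present in 8.96% of members, 5.02% of tested genes and 12% of all promoters. TGACNNNGC was present in 8.96% of members, 15.6% of tested genes and 13.6% of all promoters. A match is a string in this window and not a tested site.

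Core ribosomal protein genes were among the most abundant genes in these cells, and all 6 L-paralogues lay below every core gene. The mean over the 9 libraries ranged from 36.0 TPM for RPS27L to 5114 TPM for RPL12, with a median of 1515 TPM, and 61 core genes were over 1000 TPM. The lowest core gene was RPS28 at 368.7 TPM, and the highest L-paralogue was RPL26L1 at 147.4 TPM. After RPL12, a protein of the stalk base, the highest levels were those of RPL35, RPS18, RPS2 and RPL13A. The median core gene was at 1572 TPM in the large and 1595 TPM in the small subunit. The genes lay on 21 chromosomes and were all annotated as protein coding.

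Together the members took a smaller share of the transcript pool in both overexpressing lines than in control. Their summed TPM was 13.32%, 14.46% and 14.00% of the library with NFE2L1, 13.99%, 14.93% and 14.36% with NFE2L1DC, and 15.83%, 16.46% and 15.02% in control. Every NFE2L1 and NFE2L1DC library lay below every control library, the nearest pair being NFE2L1DC replicate 2 and control replicate 3. The means were 13.92% ± 0.571, 14.43% ± 0.471 and 15.77% ± 0.721 in the NFE2L1, NFE2L1DC and control groups (SD, n = 3 each). The 37 mitochondrially encoded genes also took a smaller share, at 17.72%, 15.27% and 16.00% with NFE2L1, 17.19%, 17.72% and 17.04% with NFE2L1DC, and 18.92%, 18.33% and 18.90% in control, without overlap. With these genes left out of the total, the median log2 fold change of the members was -0.21 with NFE2L1 and -0.13 with NFE2L1DC, beside -0.17 and -0.11 with them. As TPM is a share of a whole, a sum lower by this much is a share of the pool and not an amount per cell. Fewer cells of a type and less RNA per cell cannot be told apart in such bulk samples.

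The shares of both subunits were lower on average in the overexpressing lines, and that of the L-paralogues was higher. Core genes of the large subunit took 7.848%, 8.359% and 8.309% with NFE2L1, 8.221%, 8.714% and 8.510% with NFE2L1DC, and 9.142%, 9.429% and 8.810% in control, with no overlap between either line and control. Core genes of the small subunit took 5.420%, 6.034% and 5.636% with NFE2L1, 5.720%, 6.161% and 5.799% with NFE2L1DC, and 6.652%, 6.987% and 6.158% in control. There NFE2L1DC replicate 2 just exceeded control replicate 3, and the NFE2L1 libraries stayed below control. The 6 L-paralogues summed to 0.0532%, 0.0635% and 0.0523% with NFE2L1, 0.0546%, 0.0556% and 0.0540% with NFE2L1DC, and 0.0378%, 0.0409% and 0.0521% in control, again without overlap, although control replicate 3 came close to the lowest NFE2L1 library.

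**Figure D1:**
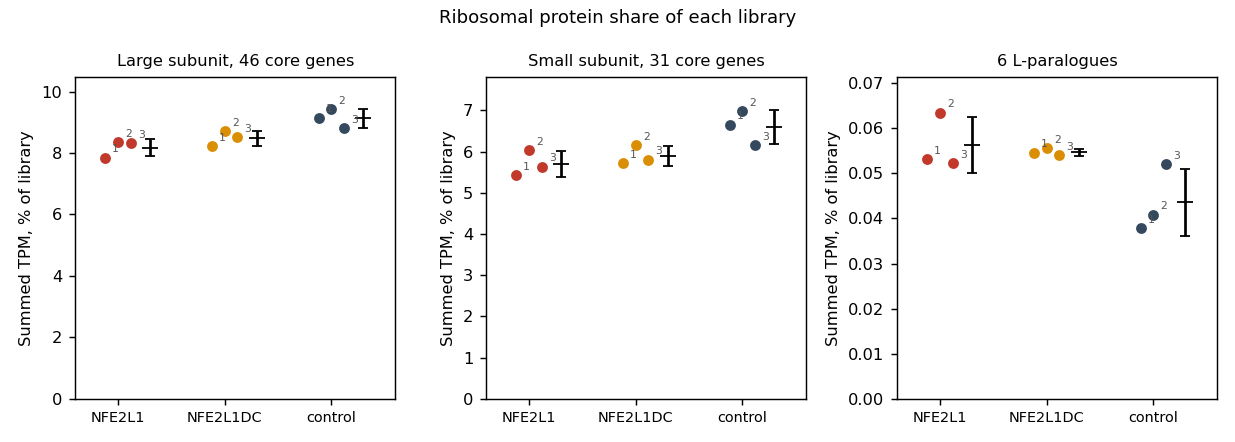
Summed TPM of core large-subunit genes, core small-subunit genes and L-paralogues as percent of each library. Points are libraries with their replicate number, and bars show the mean ± SD of 3 libraries. Both core sums are lowest in the NFE2L1 group on average, and the L-paralogue sum is lowest in control.

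The balance between the subunits was shifted slightly towards the large subunit in both lines on average, with groups that overlapped. The ratio of large to small subunit core TPM was 1.448, 1.385 and 1.474 with NFE2L1, 1.437, 1.414 and 1.468 with NFE2L1DC, and 1.374, 1.350 and 1.431 in control. The overlap with control came from control replicate 3, and every library of both lines lay above control replicates 1 and 2. RPS19 accounted for part of the gap between the means, which were 1.436 ± 0.0457, 1.440 ± 0.0268 and 1.385 ± 0.0415, and 1.463 ± 0.0251, 1.462 ± 0.0186 and 1.438 ± 0.034 without RPS19 (NFE2L1, NFE2L1DC and control, SD, n = 3 each).

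In the comparison of NFE2L1 with control, all core ribosomal protein genes that passed were lower, and the single member that rose was an L-paralogue. Among the members that passed, the acidic stalk proteins RPLP0 and RPLP1 had the largest falls, with RPS9, RPS28, RPL13A, RPL7A, RPL9, RPL29, RPL41, RPL10A and RPL12 among those after them, and RPL26L1 rose. In all 12 of 83 members fell and 1 rose at a limma adjusted p under 0.05, against 2.57% lower and 7.83% higher (10.4% either way) among the 14118 genes tested. Of the core genes, 9 of 46 in the large and 3 of 31 in the small subunit fell. The median log2 fold change was -0.12 for core large, -0.19 for core small and 0.41 for the 6 L-paralogues, beside 0.17 for all genes. With the GC and length correction these were -0.27, -0.34 and 0.11, beside 0.003. Under median-of-ratios scaling they were -0.30, -0.36 and 0.24, beside 0.02, and no L-paralogue passed. Without control replicate 3 they were -0.15, -0.20 and 0.55, beside 0.24. In 31 members every NFE2L1 library lay below every control library (9.53% of all genes), and in 3, RPL31, RPL22L1 and RPL26L1, every one lay above (22.6% of all genes).

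These counts depended on which libraries of either group were in the fit. Without control replicate 3, 35 members fell and 8 rose, against 5.69% lower and 30.1% higher among all genes. The 8 then held 4 core genes, RPL6, RPL7, RPL17 and RPS24, so that the absence of core genes that rose rests on that library. Without control replicate 2 none passed, and of 14118 genes 126 were lower and 384 higher. In the fit without NFE2L1 replicate 1, 1 fell and 1 rose, against 156 lower and 404 higher among all genes. Without NFE2L1 replicate 2 or 3, 5 and 2 members fell and 0 rose. Among all genes 156 and 134 were lower and 417 and 397 higher there. The median stayed negative in each of the 9 fits that left out a library, between -0.18 and -0.12. Leaving out an NFE2L1DC library cannot move this median, which was -0.17 in each such fit.

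RPLP0 (ENSG00000089157, GRCh38 chromosome 12, 120196686 to 120201235, minus strand) encodes the scaffold of the ribosomal stalk, which recruits translation factors. It was at 2037, 2267 and 2186 TPM with NFE2L1, 2316, 2566 and 2936 TPM with NFE2L1DC, and 3108, 3231 and 2795 TPM in control. All NFE2L1 libraries were below all control libraries, while the NFE2L1DC libraries reached into the control range. The log2 fold change was -0.49 with NFE2L1 (SE 0.09, limma adjusted p = 0.0128) and -0.23 with NFE2L1DC (SE 0.09, adjusted p = 0.195). The call with NFE2L1 held in 17 of 20 other fits and was lost without control replicate 1, control replicate 2 or NFE2L1 replicate 1. Its partner on the stalk, RPLP1 (chromosome 15, 69452784 to 69456194), was at 1345, 1524 and 1635 TPM with NFE2L1, 1373, 1796 and 1776 TPM with NFE2L1DC, and 2275, 2092 and 1921 TPM in control. Both lines lay below control throughout, and the log2 fold change was -0.48 with NFE2L1 (SE 0.12, adjusted p = 0.0336) and -0.35 with NFE2L1DC (SE 0.12, adjusted p = 0.129). The third stalk gene, RPLP2, had a log2 fold change of -0.24 with NFE2L1 (adjusted p = 0.0967) and -0.21 with NFE2L1DC (adjusted p = 0.19).

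RPL13A (ENSG00000142541, chromosome 19, 49487554 to 49492308, plus strand), whose protein also has a role outside the ribosome in silencing inflammatory mRNAs, had the smallest p of the members. Like RPLP0 it is often used as a reference gene in quantitative PCR. It was at 3726, 3999 and 3959 TPM with NFE2L1, 4118, 4416 and 4408 TPM with NFE2L1DC, and 5073, 5037 and 4597 TPM in control. The 3 groups did not overlap, with NFE2L1 lowest and control highest. Its log2 fold change was -0.33 with NFE2L1 (SE 0.06, adjusted p = 0.0107), and the call held in 17 of 20 other fits. With NFE2L1DC it was -0.18 (SE 0.06, adjusted p = 0.123).

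RPL12 (chromosome 9, 127447674 to 127451405), at the base of the stalk, was at 4637, 4708 and 4820 TPM with NFE2L1, 5046, 5243 and 5079 TPM with NFE2L1DC, and 5334, 5555 and 5603 TPM in control. The groups again did not overlap. RPL12 fell with NFE2L1, at -0.22 on the log2 scale (SE 0.05, adjusted p = 0.0213), and the value with NFE2L1DC was -0.10 (adjusted p = 0.245). RPL7A, RPL10A, RPL29 and RPL41, all of the large subunit, fell with NFE2L1, with log2 fold changes between -0.31 and -0.23. RPS9, of the small subunit, fell with a log2 fold change of -0.35. Each of these 5 lost its call in at least 10 of 20 other fits.

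RPL9 and RPS28 share much of their sequence with expressed pseudogene copies, and the authors' counting may have split reads between them. RPL9 (chromosome 4, 39452521 to 39458949) was at 625.1, 679.6 and 660.4 TPM with NFE2L1, 632.9, 685.0 and 684.9 TPM with NFE2L1DC, and 777.6, 847.8 and 801.3 TPM in control. Both lines lay below control throughout. It fell with NFE2L1 (log2 fold change -0.30, SE 0.06, adjusted p = 0.0191) and with NFE2L1DC (-0.28, SE 0.06, adjusted p = 0.0474). Pseudogenes named for RPL9 held 56.3% of the joint TPM, and with their TPM added the fall held with NFE2L1 (-0.24, adjusted p = 0.0379) and not with NFE2L1DC (-0.12, adjusted p = 0.294).

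RPS28 (chromosome 19, 8321158 to 8323340), at the mRNA exit site of the small subunit, was at 318.0, 367.7 and 341.9 TPM with NFE2L1, 321.0, 350.5 and 322.6 TPM with NFE2L1DC, and 445.4, 468.7 and 382.4 TPM in control. No library of either line reached the lowest control library. The log2 fold change was -0.33 with NFE2L1 (SE 0.09, adjusted p = 0.0481) and -0.38 with NFE2L1DC (SE 0.09, adjusted p = 0.0543). Its 3 pseudogenes held 74.2% of the joint TPM, and they were at 912.9, 1001 and 1014 TPM with NFE2L1, 1100, 1122 and 1328 TPM with NFE2L1DC, and 1021, 1061 and 979.5 TPM in control. With them added, the log2 fold change was -0.14 with NFE2L1 (adjusted p = 0.245) and 0.06 with NFE2L1DC (adjusted p = 0.668). The call with NFE2L1 and the direction with NFE2L1DC thus depended on whether the pseudogene TPM was counted with the gene. How reads were assigned was not tested. Over 10% of the joint TPM also lay in pseudogenes for RPL10, RPSA, RPL23A, RPS26 and RPL15.

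**Figure D2:**
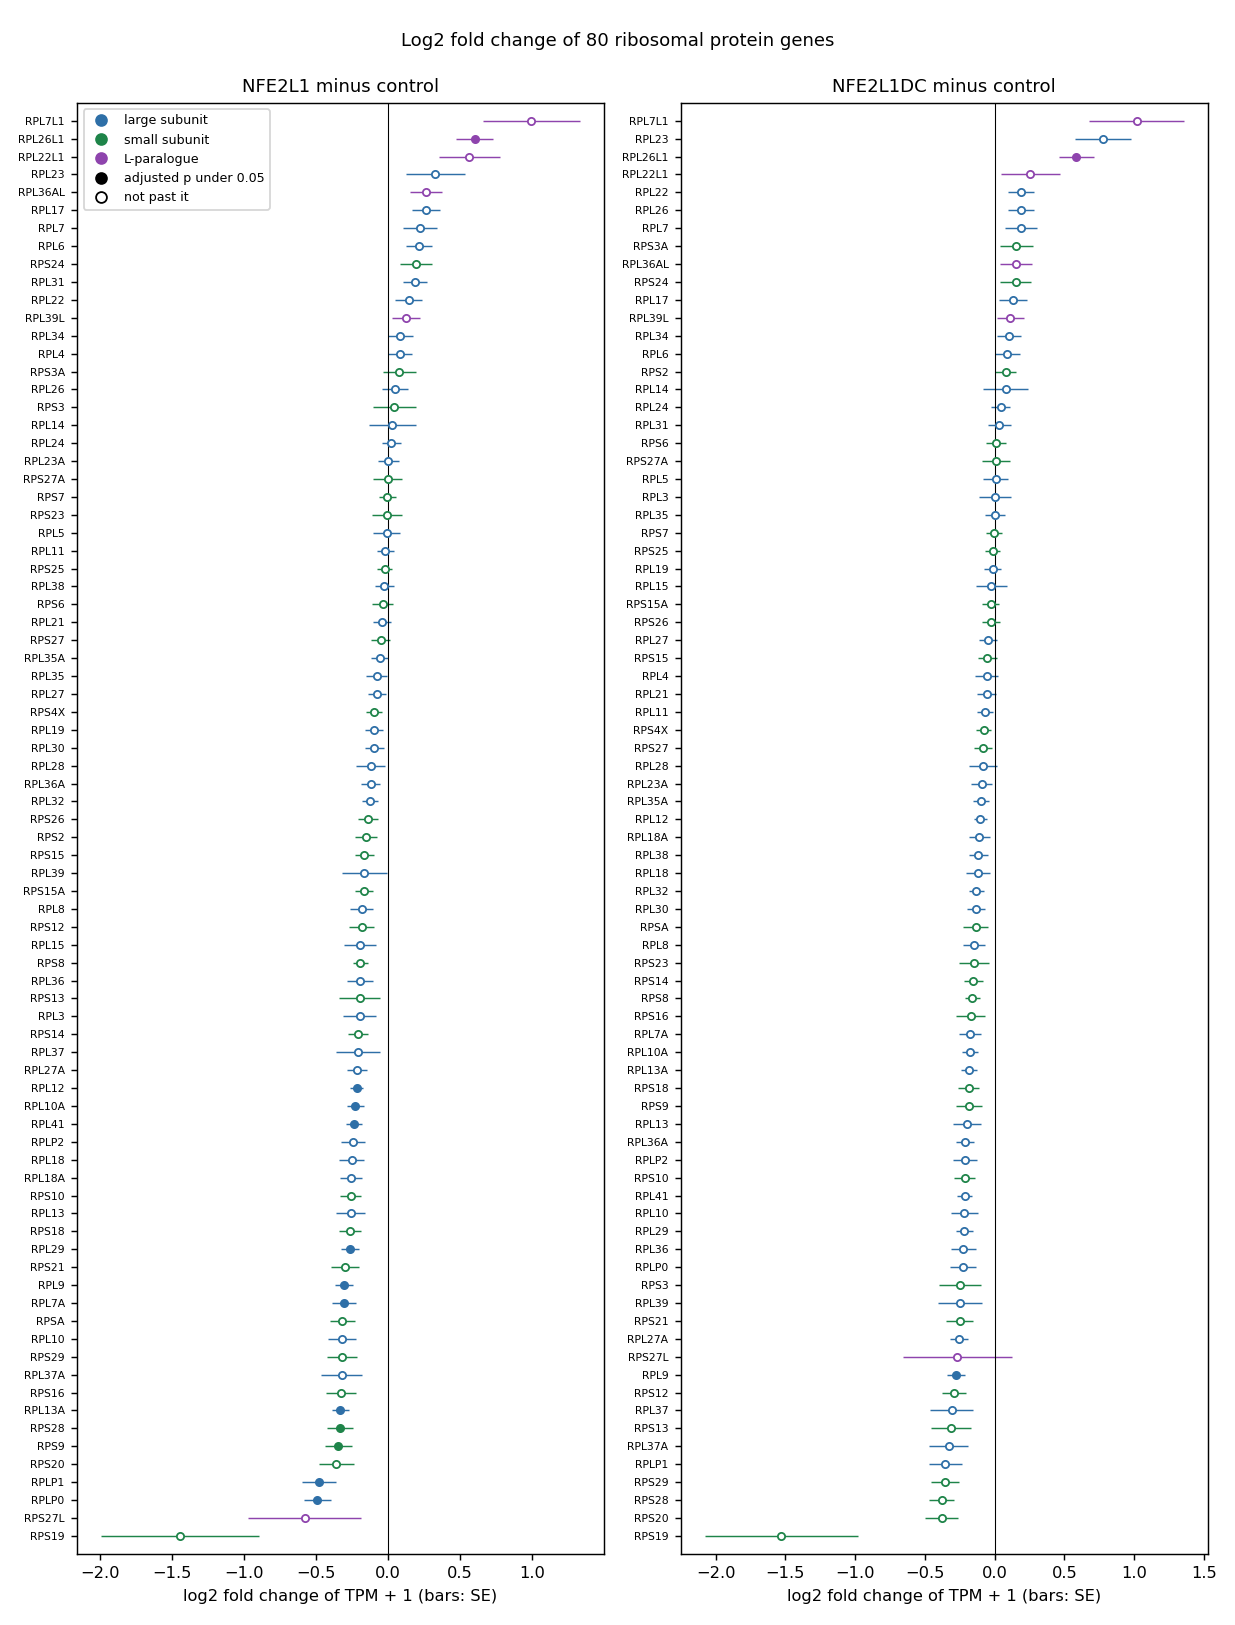
Log2 fold change of 80 of the 83 members with its standard error, NFE2L1 minus control on the left and NFE2L1DC minus control on the right, on the log2(TPM + 1) scale. Filled points passed a limma adjusted p under 0.05, 12 on the left and 2 on the right. RPS19 lies lowest and RPL7L1 highest in both panels without passing.

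RPS19 (ENSG00000105372, chromosome 19, 41859918 to 41872926, plus strand), needed for maturation of the small subunit and mutated in Diamond-Blackfan anaemia, had the most negative log2 fold change and did not pass with all 9 libraries and no replicate block. It was at 561.0, 2230 and 544.1 TPM with NFE2L1, 587.7, 1551 and 625.9 TPM with NFE2L1DC, and 2699, 2823 and 1801 TPM in control. Replicates 1 and 3 of each overexpressing line were low, whereas replicate 2 of each was within or near the control range, so NFE2L1 overlapped control and NFE2L1DC did not. Its log2 fold change was -1.44 with NFE2L1 (SE 0.55, adjusted p = 0.116) and -1.53 with NFE2L1DC (SE 0.55, adjusted p = 0.152). Without NFE2L1 replicate 2 it passed with NFE2L1 (-2.11, adjusted p = 0.024, against 0.0457 to 0.295 in the other alternatives). The spread within groups, an SD of 0.834 on the log2 scale, was the highest of the members, whose median was 0.112.

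In the comparison of NFE2L1DC with control, 2 members fell, RPL9 among them, and RPL26L1 rose. The calls compare with 1.54% lower and 2.06% higher (3.61% either way) among all genes. In 24 members every NFE2L1DC library lay below every control library (8.98% of all genes), and in RPL23 and RPL26L1 every one lay above (13.7% of all genes). The median log2 fold change was -0.11 for core large, -0.15 for core small and 0.20 for the L-paralogues, beside 0.12 for all genes. For the L-paralogues it was 0.03 with the GC and length correction, beside 0.006 for all genes. Under median-of-ratios scaling it was 0.09, beside 0.02, and no L-paralogue passed. Without control replicate 3 it was 0.34, beside 0.18.

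The 3 calls rest on single libraries. Without control replicate 3, 27 members fell and 6 rose, among them the core genes RPL7, RPL26 and RPS24, against 4.34% lower and 20.1% higher among all genes. None passed without control replicate 1 or 2, NFE2L1 replicate 2, or NFE2L1DC replicate 1 or 3. In these fits 211, 115, 267, 137 and 119 of 14118 genes passed, in that order, against 509 with all 9 libraries. The fits without NFE2L1 replicate 1 or 3 each had 1 rise and no fall, the rise being RPL26L1 in the former and RPL23 in the latter. Among all genes 156 and 128 were higher and 113 and 102 lower there. The fit without NFE2L1DC replicate 2 had 2 falls and no rise, against 171 lower and 229 higher among all genes.

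RPL23 (ENSG00000125691, chromosome 17, 38847865 to 38853843, minus strand), a large-subunit protein that also binds MDM2, had the highest log2 fold change of a core gene with NFE2L1DC. It was at 503.7, 630.4 and 900.5 TPM with NFE2L1, 846.4, 1092 and 788.8 TPM with NFE2L1DC, and 497.6, 605.1 and 479.9 TPM in control. The NFE2L1DC libraries all exceeded control, and the NFE2L1 libraries overlapped both groups. On the log2 scale the difference from control was 0.78 with NFE2L1DC (SE 0.20, adjusted p = 0.0684) and 0.33 with NFE2L1 (SE 0.20, adjusted p = 0.296), and neither passed with all 9 libraries. In the fit without NFE2L1 replicate 3, RPL23 passed with NFE2L1DC. RPS20, of the small subunit, had a log2 fold change of -0.38 with NFE2L1DC (adjusted p = 0.117) and passed only where control replicate 3 was left out among the fits that omit a library of these groups (-0.49, adjusted p = 0.0188).

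Several core members had overlapping groups and log2 fold changes near 0. RPL5 and RPL11, which with the small ribosomal RNA of the large subunit form a particle that binds MDM2, had log2 fold changes between -0.07 and 0.01 in both comparisons with control. Under the GC and length correction, however, RPL5 was among the 12 members called lower with NFE2L1. RPL11 was at 2324, 2604 and 2483 TPM with NFE2L1, 2471, 2369 and 2303 TPM with NFE2L1DC, and 2440, 2520 and 2544 TPM in control, with all groups overlapping. RPS6, the substrate of the S6 kinases, was at 2181, 2324 and 2192 TPM with NFE2L1, 2531, 2199 and 2209 TPM with NFE2L1DC, and 2175, 2441 and 2265 TPM in control, again overlapping. Its log2 fold changes were -0.04 (SE 0.07, adjusted p = 0.738) and 0.01 (SE 0.07, adjusted p = 0.938). RPS27A, made as a fusion with ubiquitin, was at 955.3, 1166 and 969.6 TPM with NFE2L1, 1154, 1009 and 956.9 TPM with NFE2L1DC, and 978.5, 988.4 and 1127 TPM in control, with all groups overlapping. Other members that did not pass lay apart from control. The most abundant small-subunit genes, RPS18 and RPS2, had log2 fold changes with NFE2L1 of -0.26 (adjusted p = 0.0585) and -0.15 (adjusted p = 0.215), and RPSA, the laminin receptor homologue, of -0.32 (adjusted p = 0.0539). In these 3 every NFE2L1 library lay below every control library, and RPS18 and RPSA passed without control replicate 3.

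No member was called different between the full form and the ΔC form. Of the 83 members 0 passed the limma test between NFE2L1 and NFE2L1DC, against 0.793% of all genes (0.715% higher and 0.0779% lower). An unadjusted p under 0.05 by limma was found for 6 members, all of them lower with NFE2L1. Among all 14118 genes it was found for 1156, 337 of them lower. The median log2 fold change was -0.03, beside 0.06 for all genes. Among the most negative values were those of RPL23 (-0.45, adjusted p = 0.62) and RPS27L (-0.31, adjusted p = 0.909), and the most positive were those of RPL22L1 (0.31, adjusted p = 0.794), RPS3, a protein at the mRNA entry site (0.29, adjusted p = 0.684), and RPL31 (0.15, adjusted p = 0.71). In 10 members every NFE2L1 library lay below every NFE2L1DC library (5.55% of all genes) and in 3 above (12.4% of all genes). A p that misses the threshold does not show that the forms act alike.

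**Figure D3:**
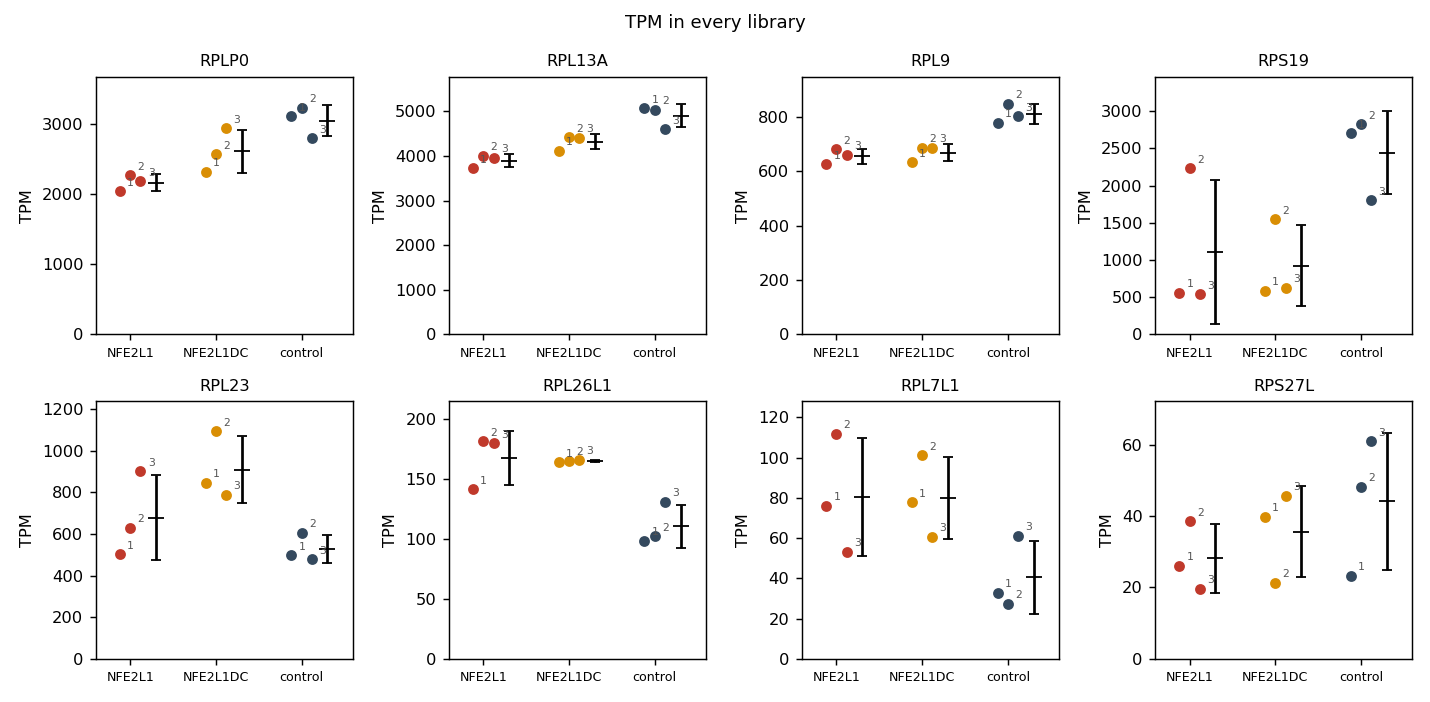
TPM in each library for 8 members, with replicate numbers beside the points and the mean ± SD of 3 libraries to their right. RPLP0, RPL13A and RPL9 are below control in all NFE2L1 libraries, RPS19 is split within both overexpressing lines, and RPL26L1 is above control in all 6 libraries of these lines.

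RPL26L1 (ENSG00000037241, chromosome 5, 172958729 to 172969771, plus strand) is a near copy of RPL26, a large-subunit protein that also binds p53 mRNA, and with all 9 libraries it was the only member to rise in either comparison with control. It was at 141.1, 181.3 and 179.3 TPM with NFE2L1, 163.5, 164.9 and 165.7 TPM with NFE2L1DC, and 98.19, 101.8 and 130.7 TPM in control. Every library of both lines was above every control library. RPL26L1 rose by a log2 fold change of 0.60 with NFE2L1 (SE 0.13, adjusted p = 0.0211) and 0.59 with NFE2L1DC (SE 0.13, adjusted p = 0.0419), which held in 13 and 8 of 20 other fits. RPL26 itself averaged 1566 ± 105.5 TPM with NFE2L1, 1722 ± 71.06 TPM with NFE2L1DC and 1518 ± 192.1 TPM in control (SD, n = 3 each), with log2 fold changes of 0.05 and 0.19 that did not pass.

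Set against its canonical gene, RPL26L1 was at 9.73%, 11.4% and 10.8% of the RPL26 level with NFE2L1, 9.07%, 9.72% and 9.94% with NFE2L1DC, and 7.08%, 7.13% and 7.52% in control. No library of either line overlapped control. The exact two-sided permutation test of the log2 ratio gave p = 0.1 in each comparison with control, the smallest that 3 against 3 libraries allow, and 0.225 after adjustment over 18 pairs of ratio and contrast. No ratio could therefore pass the threshold. Near-identical copies such as these may share reads, so their ratios are uncertain.

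RPL36AL is a near copy of RPL36A, which overlaps a readthrough gene to its neighbour. RPL36AL was at 10.8%, 10.1% and 9.94% of RPL36A with NFE2L1, 10.7%, 9.71% and 9.95% with NFE2L1DC, and 7.28%, 6.90% and 9.66% in control. Both lines lay above control, with control replicate 3 close to them (exact permutation p = 0.1 in each comparison). Its own log2 fold change was 0.26 with NFE2L1 (adjusted p = 0.153) and 0.15 with NFE2L1DC (adjusted p = 0.449). Without control replicate 3 it passed in both, at 0.40 (adjusted p = 0.00536) and 0.29 (adjusted p = 0.0268), and it turned to -0.10 and -0.11 under a correction for GC content and length.

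RPL7L1, a copy of RPL7 with a role in ribosome assembly, had the highest log2 fold change of all members in both comparisons with control and passed in neither. It was at 76.16, 111.8 and 53.18 TPM with NFE2L1, 77.88, 101.3 and 60.63 TPM with NFE2L1DC, and 32.78, 27.48 and 61.27 TPM in control. Control replicate 3 lay inside the range of both lines and the other control libraries below it. The log2 fold change was 0.99 with NFE2L1 (SE 0.34, adjusted p = 0.0892) and 1.02 with NFE2L1DC (SE 0.34, adjusted p = 0.128). Without control replicate 3 it was 1.33 (adjusted p = 0.011) and 1.35 (adjusted p = 0.0156).

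RPL22L1, a copy of RPL22, was at 39.62, 61.13 and 40.35 TPM with NFE2L1, 33.77, 46.15 and 32.52 TPM with NFE2L1DC, and 31.03, 25.12 and 37.68 TPM in control. NFE2L1 lay above control and NFE2L1DC overlapped it. For the gene itself the log2 fold change was 0.56 with NFE2L1 (adjusted p = 0.113) and 0.25 with NFE2L1DC (adjusted p = 0.501). Relative to RPL22, it was at 8.0%, 12.3% and 7.69% with NFE2L1, 5.73%, 9.09% and 6.82% with NFE2L1DC, and 7.43%, 5.50% and 7.48% in control. Without control replicate 3 the gene's log2 fold change with NFE2L1 was 0.70 (adjusted p = 0.0372).

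RPS27L, the small-subunit paralogue, varied widely within groups. It was at 26.11, 38.60 and 19.71 TPM with NFE2L1, 39.83, 21.32 and 45.74 TPM with NFE2L1DC, and 23.27, 48.29 and 60.96 TPM in control, with all groups overlapping. Log2 fold changes were -0.58 with NFE2L1 (SE 0.39, adjusted p = 0.338) and -0.27 with NFE2L1DC (SE 0.39, adjusted p = 0.706). They were -0.30 and 0.01 without control replicate 3 (adjusted p = 0.595 and 0.984). RPS27L was at 0.713% ± 0.236 of RPS27 with NFE2L1, 0.941% ± 0.388 with NFE2L1DC and 1.08% ± 0.473 in control (SD, n = 3 each). RPL39L, known from testis, averaged 99.15 ± 8.363 TPM with NFE2L1, 98.39 ± 10.43 TPM with NFE2L1DC and 90.70 ± 3.652 TPM in control, and log2 fold changes of 0.12 and 0.11 did not pass.

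The size of a member's difference from control went with the GC content of its transcripts. Members ranged from 39.2% to 62.8% GC with a median of 49.9%. In the 41 members of highest GC content the median log2 fold change was -0.24 with NFE2L1 and -0.18 with NFE2L1DC, and in the other 42 members it was -0.01 and -0.03. Across the 83 members, which are not independent and share libraries, Spearman's rho with GC content was -0.569 for NFE2L1 minus control and -0.359 for NFE2L1DC minus control. Over 11445 tested protein-coding genes rho was -0.449 and -0.374.

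Control replicate 3 decided much of this relation. Set against control replicates 1 and 2, rho across the members was -0.631 for NFE2L1 and -0.502 for NFE2L1DC, and set against control replicate 3 alone it was -0.204 and 0.233. Control replicate 3 minus control replicates 1 and 2 had a rho of -0.635. The median of the members was negative against each control library, at -0.15, -0.21 and -0.08 for NFE2L1 minus control replicates 1, 2 and 3 and at -0.09, -0.18 and -0.06 for NFE2L1DC. Against control replicate 3 the median of all genes was itself -0.01 for NFE2L1 and -0.06 for NFE2L1DC, so that the members of NFE2L1DC lay at the level of all genes there.

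**Figure D4:**
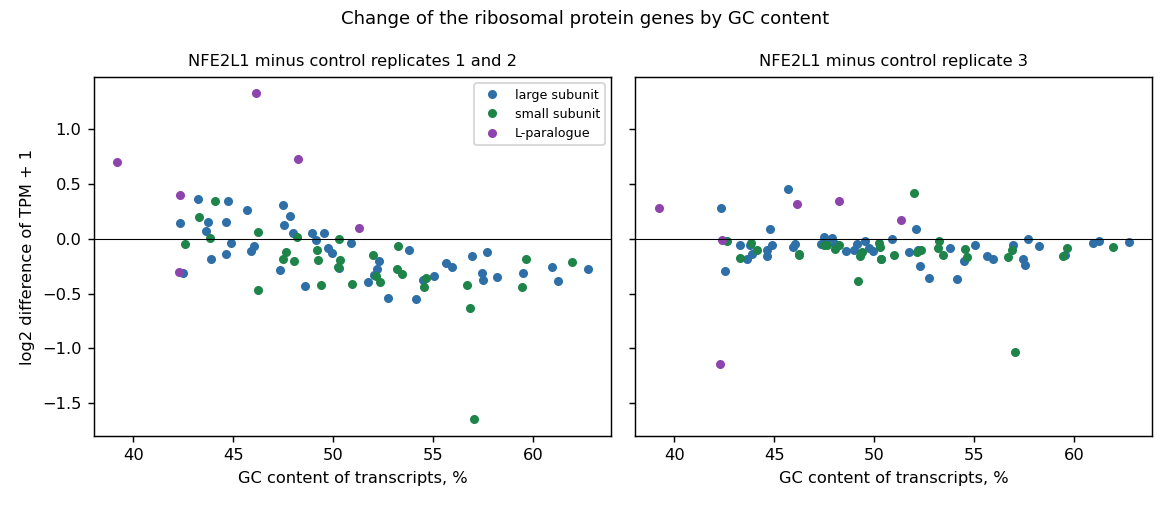
Log2 difference of each member between the NFE2L1 mean and control replicates 1 and 2 (left) or control replicate 3 (right), plotted against the GC content of its transcripts in percent. Spearman's rho is -0.631 on the left and -0.204 on the right.

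The members with and without a pyrimidine run at the annotated start had similar levels. In some genes counted as without, such as RPL9 and RPL10A, a run lies a few bases after that start. The groups therefore do not separate mRNAs with a TOP motif from mRNAs without it. The median of mean TPM was 1598.5 in the 42 core genes with such a run and 1501 in the 20 without. Their median log2 fold changes were -0.19 with and -0.13 without the run for NFE2L1 minus control, and -0.16 and -0.06 for NFE2L1DC minus control, with no test over members.

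The ribosome biogenesis factors that passed were all higher in both lines. Of 50 such factors, which build the subunits in the nucleolus, 20 (40.0%) rose and 0 fell with NFE2L1, with a median log2 fold change of 0.60, against 7.83% higher among all genes. With NFE2L1DC 7 (14.0%) rose and 0 fell, with a median of 0.46, against 2.06% higher among all genes. RRS1, an assembly factor that brings RPL5 and RPL11 into the large subunit, was at 104.1, 107.4 and 107.2 TPM with NFE2L1, 99.78, 88.52 and 96.64 TPM with NFE2L1DC, and 59.20, 59.31 and 63.61 TPM in control. Its log2 fold change was 0.80 with NFE2L1 (SE 0.08, adjusted p = 0.000341) and 0.64 with NFE2L1DC (SE 0.08, adjusted p = 0.00341). The rRNA methyltransferase NOP2 was at 175.5, 180.2 and 169.6 TPM with NFE2L1, 163.3, 159.7 and 166.4 TPM with NFE2L1DC, and 116.1, 111.5 and 118.8 TPM in control. Both genes had no overlap between either line and control. NOP2 rose by 0.60 with NFE2L1 (adjusted p = 0.000646) and 0.50 with NFE2L1DC (adjusted p = 0.00494) on the log2 scale. Under median-of-ratios scaling 12 and 2 of the 50 factors rose, against 557 and 119 of 14118 genes. Without control replicate 3 the counts were 39 and 34, where 30.1% and 20.1% of all genes rose.

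Of 77 mitochondrial ribosomal protein genes, the parts of the other ribosome of the cell, 11 (14.3%, against 7.83% of all genes) rose and 0 fell with NFE2L1. Their median was 0.21, beside 0.17 for all genes. None passed with NFE2L1DC, where 24 had an unadjusted p under 0.05 by limma, all higher. Among all 14118 genes 3066 did so there, 1025 of them lower. MRPL32 rose with NFE2L1 to 80.5 ± 3.83 TPM, against 48.3 ± 7.57 TPM in control (SD, n = 3 each; adjusted p = 0.00801). With NFE2L1 3 of the 77 rose with the GC and length correction, against 879 of 14085 genes. Under median-of-ratios scaling 6 rose, against 557 of 14118 genes. Without control replicate 3, 25 rose with NFE2L1 and 18 with NFE2L1DC, where 30.1% and 20.1% of all genes rose. Of 13 chaperones and importers of ribosomal proteins, 4 rose with NFE2L1 (RRS1, PDCD2, GRWD1 and BCCIP) and 1 with NFE2L1DC (RRS1, counted above among the biogenesis factors too), or 30.8% and 7.69% against 7.83% and 2.06% of all genes. With NFE2L1 2 of the 13 rose under median-of-ratios scaling. Without control replicate 3 the counts were 8 and 6, again against 30.1% and 20.1% of all genes. Of 15 ribosome quality control genes, PELO, which rescues stalled ribosomes, and G3BP1 rose with NFE2L1 (13.3%, against 7.83% of all genes). None passed with NFE2L1DC, where 3 were higher and 1 lower at an unadjusted p under 0.05 by limma, against the same 3066 of 14118 genes. In the fit without control replicate 3, 12 of the 15 rose with NFE2L1, against 30.1% of all genes. With NFE2L1DC 9 rose and 1 fell there, against 20.1% higher and 4.34% lower among all genes.

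Of 26 translation factors and other mRNAs with a TOP motif, EIF3L alone passed and fell with NFE2L1, against 2.57% lower among all genes. Its log2 fold change was -0.31 (limma adjusted p = 0.0235). At an unadjusted p under 0.05 by limma 5 were higher and 4 lower with NFE2L1, against 4289 of 14118 genes, 1047 of them lower. None passed with NFE2L1DC, where 3 were higher at an unadjusted p under 0.05, against 3066 of 14118 genes, 1025 of them lower. Without control replicate 3, 7 of the 26 rose and 3 fell with NFE2L1, against 30.1% higher and 5.69% lower among all genes. With NFE2L1DC 5 rose in that fit, against 20.1% of all genes. The list had a median of 0.13 with NFE2L1, beside 0.17 for all genes. Under median-of-ratios scaling its median was -0.05, beside 0.02, so it lay below that of all genes in both. Within the list were the ribosome components with other names. FAU averaged 378 ± 38.1 TPM with NFE2L1, 386 ± 33.7 TPM with NFE2L1DC and 445 ± 43.4 TPM in control (SD, n = 3 each). RACK1 had a log2 fold change of -0.18 with NFE2L1, and neither FAU nor RACK1 passed in either comparison with control. Of 22 genes of mTOR, LARP1 and translation control, RHEB, LARP1 and EIF4E rose with NFE2L1 (13.6%, against 7.83% of all genes). MXD4 fell with NFE2L1, where 2.57% of all genes were lower. EIF4EBP1, a repressor of EIF4E, rose with NFE2L1DC (4.55%, against 2.06%). Leaving out control replicate 3, 8 of the 22 rose and 1 fell with NFE2L1 and 7 rose with NFE2L1DC, against the same shares of all genes. Under median-of-ratios scaling 1 rose and 1 fell with NFE2L1, against 557 higher and 464 lower of 14118 genes. LARP1, the reader of the TOP motif, was at 156 ± 6.18 TPM with NFE2L1, 146 ± 15 TPM with NFE2L1DC and 107 ± 18.1 TPM in control (log2 fold change 0.56, adjusted p = 0.024 with NFE2L1, and 0.45, adjusted p = 0.0821 with NFE2L1DC). Between NFE2L1 and NFE2L1DC no gene of these 6 lists passed.

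**Figure D5:**
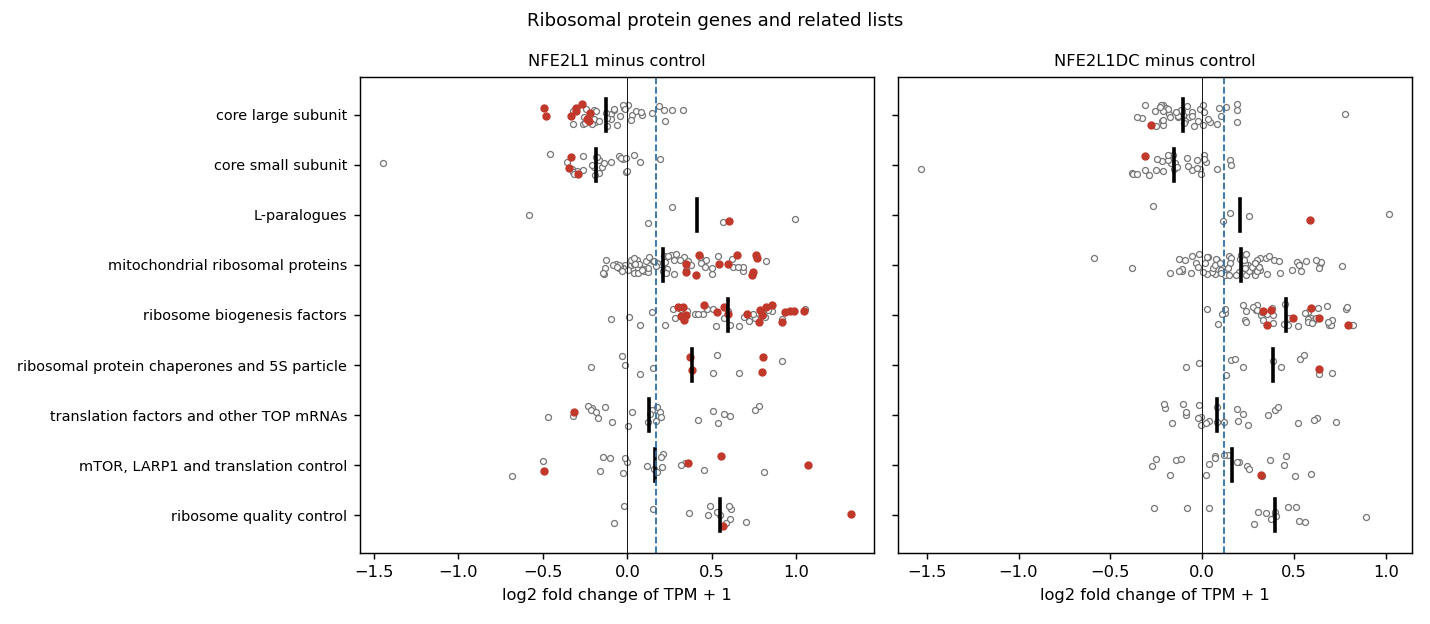
Log2 fold change of each tested gene of the member groups and of 6 related lists, NFE2L1 minus control on the left and NFE2L1DC minus control on the right. Filled points passed a limma adjusted p under 0.05, black bars are the medians of the lists, and the dashed line is the median of all genes tested (0.17 and 0.12). The medians of both core groups lie left of that line, and that of the ribosome biogenesis factors lies right of it.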

How the data were processed

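The deposited table holds TPM values that the authors made for each gene and library. CASAVA and GRCh38 are named per the submitters' processing notes, and the sources used here give no aligner, quantifier, annotation release, strandedness or filter. Columns summed to between 999983.0 and 999991.7, and 13057 to 13950 genes reached 1 TPM in a library. The table has no counts, so values carry no counting interval. GENCODE 29 matched 57836 gene identifiers and supplied coordinates, GC content and transcript length.

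Genes at 1 TPM or more in at least 3 of 9 libraries were kept. limma 3.58.1 (R 4.3.3) was fitted to log2(TPM + 1) with 1 mean per group and a variance trend, and p-values were adjusted by Benjamini-Hochberg over all 14118 genes, two-sided, with calls at an adjusted p under 0.05. Fold changes on this scale understate those of low genes. The code was tested on simulated data. Exact permutation tests of paralogue ratios used scipy 1.17.1. Both lines share the 3 control libraries.

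Members and lists were chosen with earlier results of these data known. Named were the called members, the 3 highest and 3 lowest changes per contrast, the 5 most and 5 least abundant members, the L-paralogues with their canonical genes, and up to 4 called genes per list, plus NFE2L1. RPL5, RPL11, RPS6, RPS27A, RPSA, RPLP2 and the members with most pseudogene signal were added after their values were seen. Replicate numbers did not pair the samples. Alternatives were other pseudocounts, filters, scalings, a GC and length correction, a block, fewer libraries, and leaving out each library. Scaling to the total without ribosomal protein genes and adding pseudogenes to their gene were chosen after seeing the data. Promoter starts came from RefSeq. Proteins were not analysed here. Some genes that the naming rule takes are counted and not reported by name here.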

Additional observations from a re-analysis of the deposited data

How the results depend on the processing

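The median change of the members minus that of all genes was negative in all 21 settings for each contrast. It ran from -0.42 to -0.19 (NFE2L1 against control), -0.32 to -0.12 (NFE2L1DC against control) and -0.13 to -0.04 (NFE2L1 against NFE2L1DC). The replicate block, the libraries of the 2 groups, no abundance trend and leaving out a library of the third group cannot move this value. Those settings therefore say nothing about its sign. The counts of calls moved widely and their cause was not tested. For NFE2L1 against control, 13 members and 1468 genes passed. Members were 3 with no filter, 3 under median-of-ratios scaling, 20 without mitochondrially encoded genes, 6 with the replicate block, 5 with the libraries of the 2 groups and 2 with no abundance trend, and 0 to 43 leaving out a library. All genes were 947 of 29759 with no filter, 1021 under median-of-ratios scaling and 1242 without mitochondrially encoded genes. They were 872 with the block, 848 with 2 groups, 1150 with no trend, and 510 to 5055 leaving out a library. For NFE2L1DC against control, 3 members and 509 genes passed. Members were 0 with no filter, under median-of-ratios scaling, with the replicate block, with 2 groups and with no abundance trend, 6 at 10 TPM, 5 without mitochondrially encoded genes, and 0 to 33 leaving out a library. All genes were 363 of 29759 with no filter, 293 under median-of-ratios scaling, 621 of 7688 at 10 TPM and 479 without mitochondrially encoded genes. They were 802 with the GC and length correction, 198 with the block, 101 with 2 groups and 313 with no trend. Leaving out a library gave 115 to 3444. For NFE2L1 against NFE2L1DC, 112 genes passed, and 73 under median-of-ratios scaling, 58 with the block and 49 to 147 leaving out a library, with 0 members throughout. With the replicate block RPS19 passed with NFE2L1 (-1.44, adjusted p = 0.0457, 0.024 to 0.295 over its alternatives). The replicate numbers share only a number: 1 of 9 same-number correlations exceeded 0.1 (range -0.189 to 0.109). Median-of-ratios scaling moved the median of all genes from 0.17 to 0.02 with NFE2L1, with 557 higher and 464 lower calls against 1105 and 363, and the GC correction gave 879 and 712. With NFE2L1DC the splits were 119 and 174 and, with the GC correction, 398 and 404, against 291 and 218. The members' median was -0.34 and -0.22 under median-of-ratios scaling and -0.28 and -0.20 with the GC correction (NFE2L1 and NFE2L1DC against control), and -0.14 to -0.087 leaving out a library with NFE2L1DC. As a mean of log2 values, the members' summed change with NFE2L1 was -0.12 (from summed TPM -0.18), and the subunit ratio 0.10 in each line (0.05 and 0.06). RPL36AL turned to -0.10 (NFE2L1) and -0.11 (NFE2L1DC) with the GC correction, RPL39L to -0.053 with NFE2L1 under median-of-ratios scaling, and RPS28 to 0.059 with NFE2L1DC with pseudogenes added. Leaving out a library, RPS27L with NFE2L1DC ran from -0.66 to 0.057, its ratio to RPS27 from -0.58 to 0.21 and RPL22L1/RPL22 from -0.11 to 0.23. Between NFE2L1 and NFE2L1DC, RPL39L/RPL39 ran from -0.29 to 0.043, RPL36AL/RPL36A from -0.015 to 0.064 and RPL7L1/RPL7 from -0.30 to 0.18. Depth is unknown, so low L-paralogue values have no counting error.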
